A study of Homo sapiens with 2 samples.

Results

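The high mobility group (HMG) genes encode abundant small chromatin proteins. The HMG genes of GENCODE release 44 with the names HMGA1, HMGA2, HMGB1, HMGB2, HMGB3, HMGN1, HMGN2, HMGN3 and HMGN4 were taken by symbol, 9 of 20033 protein-coding genes on chromosomes 1 to 22, X and Y. CUT&Tag peaks for NUDT21 were collected for each gene if they lay within 3 kb of any annotated transcript start, over the gene body or within 1 kb past its end. This gave 23 of 97162 peaks in replicate 1 and 14 of 68532 peaks in replicate 2.

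Both libraries came from J.gamma1 cells, an established human line of T-cell acute lymphoblastic leukemia (T-ALL) derived from Jurkat and lacking PLCG1. The labels name no treatment or modification of the cells, and an antibody against NUDT21 directed the transposase that cut and tagged nearby DNA. The methods of the study describe both samples as independent biological replicates of 1 line, so they form 1 group, with no second line, no genotype contrast and no control sample analysed here. The data therefore allow the description of peaks in each replicate but no test between conditions.

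HMGA proteins grip the minor groove of AT-rich DNA through AT-hooks, HMGB proteins bend DNA through HMG boxes, and HMGN proteins bind directly to nucleosomes. HMGA1 and HMGB2 are linked to proliferating cells, HMGA2 to embryonic cells, and HMGB1 also acts as an alarm signal outside the cell. NUDT21, also named CFIm25, is a subunit of the cleavage factor that binds UGUA in pre-mRNA and guides the choice of polyadenylation site. The study asked whether NUDT21 also lies at promoter regions, and the peaks at HMG promoters bear on that question gene by gene.

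The sequences under the promoter summits are shown first, since the results for HMGA1 and HMGB1 turn on where the summits fell. Windows of 151 bases were read from hg38 around the summit of the strongest promoter peak, on the strand of the gene, from 5′ to 3′. Capitals mark the searched motifs on either strand. These were the NUDT21 element written as DNA (TGTA), the CCAAT box, the GC box (GGGCGG), the E-box (CACGTG), the ETS site (CCGGAAGT), a pair of E2F sites (TTTGGCGC as well as TTTCCCGC) and the TATA box (TATAAA). HMGA1 is shown for both replicates because their summits lay far apart, at chr6:34238291-34238441 in replicate 1 and chr6:34236738-34236888 in replicate 2 (plus strand). HMGB1 is shown at chr13:30465939-30466089 (minus strand), HMGB2 at chr4:173334481-173334631 (minus strand) and HMGN1 at chr21:39349292-39349442 (minus strand), all from replicate 1.
HMGA1, replicate 1: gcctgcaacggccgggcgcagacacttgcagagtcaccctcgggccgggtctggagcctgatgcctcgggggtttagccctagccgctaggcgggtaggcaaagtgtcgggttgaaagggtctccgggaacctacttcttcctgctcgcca
HMGA1, replicate 2: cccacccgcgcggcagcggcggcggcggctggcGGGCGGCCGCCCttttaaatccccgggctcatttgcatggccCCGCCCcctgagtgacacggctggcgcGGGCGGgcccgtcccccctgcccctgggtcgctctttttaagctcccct
HMGB1: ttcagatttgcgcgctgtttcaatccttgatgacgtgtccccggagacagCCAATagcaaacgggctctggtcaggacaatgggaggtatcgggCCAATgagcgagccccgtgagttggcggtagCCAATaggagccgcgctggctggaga
HMGB2: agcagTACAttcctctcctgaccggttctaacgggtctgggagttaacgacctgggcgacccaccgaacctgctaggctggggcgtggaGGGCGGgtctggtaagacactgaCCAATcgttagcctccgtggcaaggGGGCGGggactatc
HMGN1: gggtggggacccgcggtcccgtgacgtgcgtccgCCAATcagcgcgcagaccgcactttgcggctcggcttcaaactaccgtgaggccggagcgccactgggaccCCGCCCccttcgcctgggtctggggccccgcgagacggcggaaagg

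The HMGB1 window held 3 copies of CCAAT, the element bound by the factor NF-Y, all on the strand of the gene. The HMGA1 window of replicate 2 held 4 copies of the GC box, whereas the HMGA1 window of replicate 1 held no searched motif. The HMGB2 window had 1 CCAAT and 2 GGGCGG, and the HMGN1 window had 1 of each.

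RefSeq promoters (GRCh38.p14, 250 bases before to 50 after the start) were matched by symbol for 7 of the 9 genes, and HMGA2 and HMGB2 had no entry. They are shown for HMGN2, the member with the highest promoter fold in both replicates, and for HMGN3, a member without any peak. The HMGN2 promoter lies at chr1:26472190-26472489 (plus strand) and the HMGN3 promoter at chr6:79234633-79234932 (minus strand).
HMGN2: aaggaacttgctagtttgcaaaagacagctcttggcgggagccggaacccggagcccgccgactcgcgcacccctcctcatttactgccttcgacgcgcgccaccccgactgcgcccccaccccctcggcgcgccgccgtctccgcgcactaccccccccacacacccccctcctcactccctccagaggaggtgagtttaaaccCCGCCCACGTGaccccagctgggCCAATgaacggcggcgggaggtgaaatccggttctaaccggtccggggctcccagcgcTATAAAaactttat
HMGN3: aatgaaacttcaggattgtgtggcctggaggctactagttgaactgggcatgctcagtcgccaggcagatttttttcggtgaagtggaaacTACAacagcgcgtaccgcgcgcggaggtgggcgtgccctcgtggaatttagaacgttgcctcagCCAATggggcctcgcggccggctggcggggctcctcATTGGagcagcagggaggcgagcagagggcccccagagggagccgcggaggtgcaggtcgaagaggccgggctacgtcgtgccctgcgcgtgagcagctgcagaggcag

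The HMGN2 promoter carried a TATA box, a CCAAT box and an E-box, with a GC box on the minus strand that overlapped the E-box. The HMGN3 promoter, without a peak, carried 2 CCAAT on opposite strands and 1 TGTA. Around the canonical starts of GENCODE in windows of the same length, CCAAT was present in 7 of 9 HMG genes, all except HMGA2 and HMGN4, and in 36.1% of 20032 promoters. CCAAT was nearly as common in promoters with a peak in both replicates, 35.8%, as in those with none, 38.0%. The other motifs differed more between these groups. GGGCGG was in 72.2% with a peak against 37.0% with none, CACGTG in 10.2% against 5.73% and the ETS site in 8.41% against 2.14%. TTTGGCGC was in 1.03% against 0.544% and TTTCCCGC in 2.74% against 1.17%. TGTA was rarer with a peak, 43.2% against 65.1%, as was TATAAA, 5.56% against 18.8%. GGGCGG was present in 7 HMG promoters against 61.3% of all promoters, and TGTA in 4 (HMGB1, HMGB3, HMGN3 and HMGN4) against 50%. HMGN2 alone among the HMG genes held TATAAA, found in 9.71% of all promoters, and CACGTG, found in 8.76%. No HMG promoter held the ETS site, found in 6.14% of all promoters, or the E2F sites, of which TTTGGCGC was in 0.864% and TTTCCCGC in 2.23%. These matches describe letters in the windows and were not measured as sites.

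Promoter peaks were found in both replicates at 6 of the 9 genes, HMGA1, HMGB1, HMGB2, HMGN1, HMGN2 and HMGN4, beside 57.0% of all protein-coding genes. HMGB3 had promoter peaks in replicate 1 alone, and HMGA2 and HMGN3 had none in either replicate, beside 29.3% of all genes without one. The count of 6 was thus close to the background. The median fold of the strongest promoter peak was 7.32 over 7 members in replicate 1 and 6.98 over 6 members in replicate 2, against 5.64 and 5.45 over all genes with a promoter peak. A fold here is the ratio of signal at the summit to the local background, with 1 added to each, as the peak caller of the authors wrote it.

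Because folds of separate lists are not on 1 scale, each peak was also ranked within its own list, and its list percentile is the percent of peaks in that list with a lower fold. The median list percentile of the strongest promoter peaks was 92.7 in replicate 1 and 91.4 in replicate 2, against 82.2 and 77.9 over all genes with a promoter peak. The strongest promoter peak was above the 90th percentile of both lists for 3 genes, HMGB1, HMGN1 and HMGN2, beside 17.0% of all genes. Ordered by the mean of both percentiles, HMGN2 stood at 97.5 ± 1.90 (SD, n = 2), HMGB1 at 96.0 ± 1.45, HMGN1 at 94.9 ± 5.47, HMGB2 at 90.7 ± 1.46, HMGN4 at 89.2 ± 1.60 and HMGA1 at 86.9 ± 8.22. Each gene overlapped its neighbours in this order within the range of its replicates, so no step between neighbours exceeded the spread. The lists also hold peaks away from promoters, so the places were lower among genes with a promoter peak. There HMGN2 exceeded 91.4% of genes in replicate 1 and 81.8% in replicate 2, HMGB1 81.9% and 78.1%, and HMGN1 90.5% and 69.4%. HMGB2 exceeded 61.6% and 70.8%, HMGN4 58.6% and 68.1%, and HMGA1 67.9% and 54.3%.

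**Figure D1:**
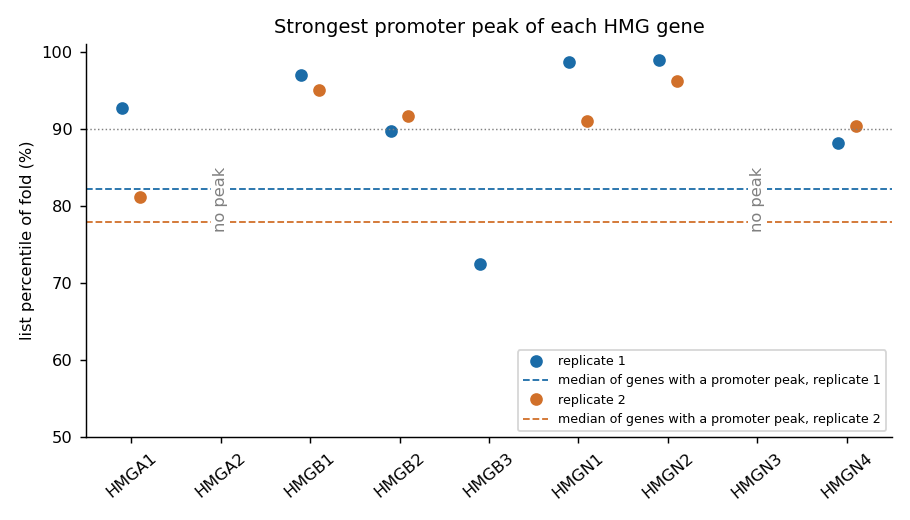
List percentile of the fold of the strongest promoter peak of each HMG gene in replicate 1 (blue) and replicate 2 (orange), with dashed lines at the medians of all genes with a promoter peak (82.2 and 77.9) and a dotted line at the 90th percentile. HMGB1, HMGN1 and HMGN2 lie above 90 in both replicates, HMGB3 has a point in replicate 1 alone, and HMGA2 and HMGN3 have no peak.

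The deposited fold and p together also give the number of fragments at a summit and the local level they were compared with, called the control level here. Over all peaks the median was 29 fragments over a control level of 6 in replicate 1 and 19 fragments over 3.79 in replicate 2. Read totals were not used, so these values describe called peaks and not the depth of the libraries. Replicate 1 peaks that overlapped a replicate 2 peak had a median of 1.7 times its fragments. At the strongest promoter peaks of the 6 HMG genes called in both, this ratio ranged from 1.5 for HMGN4 to 2.68 for HMGN2, with a median of 2.21.

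**Figure D2:**
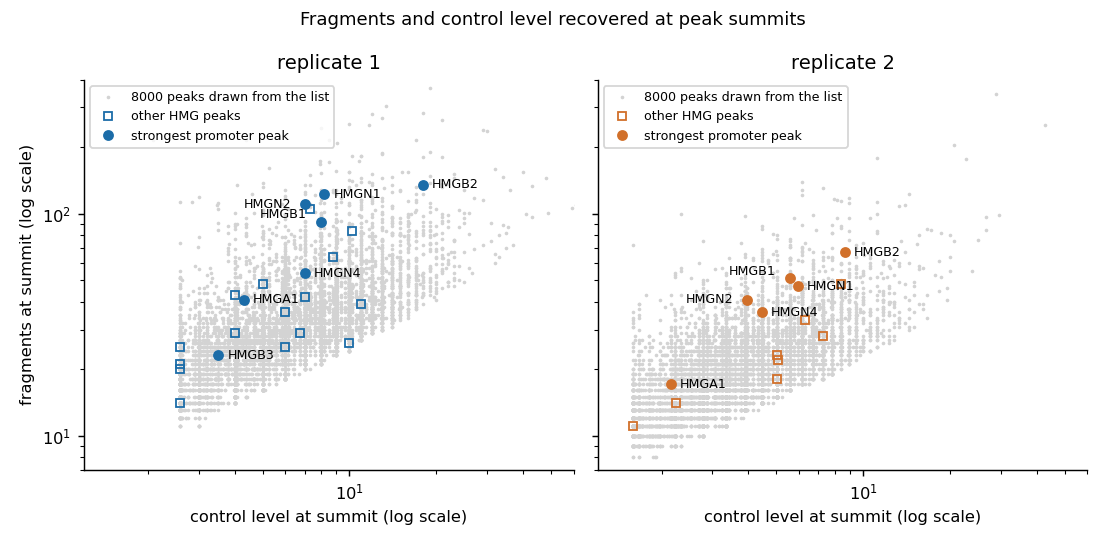
Fragments at the summit against the control level (both on log axes) for the strongest promoter peak of each HMG gene (filled circles, labelled), the other HMG peaks (open squares) and 8000 peaks drawn from each list (grey). HMGB2 has the most fragments of the HMG genes in both replicates, 135 and 67, and the highest control levels among the strongest promoter peaks.

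The first family, HMGA, was split between a gene with many peaks and a gene with none. HMGA1 (ENSG00000137309.21, chr6:34236873-34246231, plus strand) had 7 peaks in each replicate, and every one overlapped a peak of the other replicate. Within the gene of 9359 bp they covered 6204 bp (66.3%) in replicate 1 and 3807 bp (40.7%) in replicate 2, and the rest of their length lay before or past it. HMGA1 has 5 annotated starts over its first 3864 bp, and 6 of the 7 peaks of replicate 1 and 5 of the 7 of replicate 2 counted as promoter peaks. One of the 6, from 34243718 to 34246115, touched the promoter window by only 20 bp, with its summit 3529 bp from the nearest start.

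The strongest HMGA1 promoter peak had a fold of 7.32 in replicate 1, from 41 fragments over a control level of 4.30, and of 5.69 in replicate 2, from 17 fragments over 2.16. The replicate 1 peak (34236342 to 34238920) spanned the canonical start, but its summit lay 1493 bp inside the gene, in an intron and 425 bp before a downstream start. In replicate 2 the peak (34236025 to 34237131) had its summit 60 bp upstream of the canonical start. The summits were 1553 bp apart, the widest separation among the 6 genes. The replicate 1 peak also covered the replicate 2 summit, so the summits differed in position but use of different starts was not shown. The GC content around the summit was 66.4% in replicate 1 and 72.1% in replicate 2, in the upper part of lists whose medians were 59.1% and 58.8%.

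The other HMGA1 peaks of replicate 1 inside the gene had folds of 3.08, 3.59, 4.95 and 6.14. The replicate 2 peaks inside the gene had folds of 3.99, 3.16, 3.80 and 3.52. Their list percentiles ranged from 14.8 to 86.6, and MIR6835 also starts among them, so the HMGA1 starts are not the only ones near. Another peak lay upstream, with a fold of 5.54 and 4.61.

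In replicate 1, but not in replicate 2, the highest fold near HMGA1 was beyond the gene. The replicate 1 peak from 34246435 to 34249799 reached a fold of 11.8 (list percentile 98.5) with its summit 3045 bp past the HMGA1 end. In replicate 2 the peak from 34246106 to 34249881 had a fold of 5.24 (list percentile 74.0), below the 5.69 of the promoter peak, with its summit 744 bp past the end. The replicate 1 summit lies inside an unnamed gene (ENSG00000225339) and the replicate 2 summit inside SMIM29, so neither is inside HMGA1. Both peaks lie within 3 kb of the start of SMIM29, so they cannot be given to either HMGA1 or SMIM29.

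HMGA2 (ENSG00000149948.14, chr12:65824460-65966291, plus strand) had no peak in either replicate along its 141832 bp or near its 6 starts. The nearest peak of either list was 306 kb from its canonical start. Among 1406 other protein-coding genes of similar length (0.8 to 1.25 times), 23.8% likewise had no peak. The HMGA2 promoter had a GC content of 61.7% and a CpG ratio (observed over expected) of 0.68. Of 418 genes with a promoter of like composition, 56.0% carried a promoter peak in each replicate and 28.7% in neither. The lists hold peaks that passed the threshold alone, so absence describes the lists and not a level of 0.

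**Figure D3:**
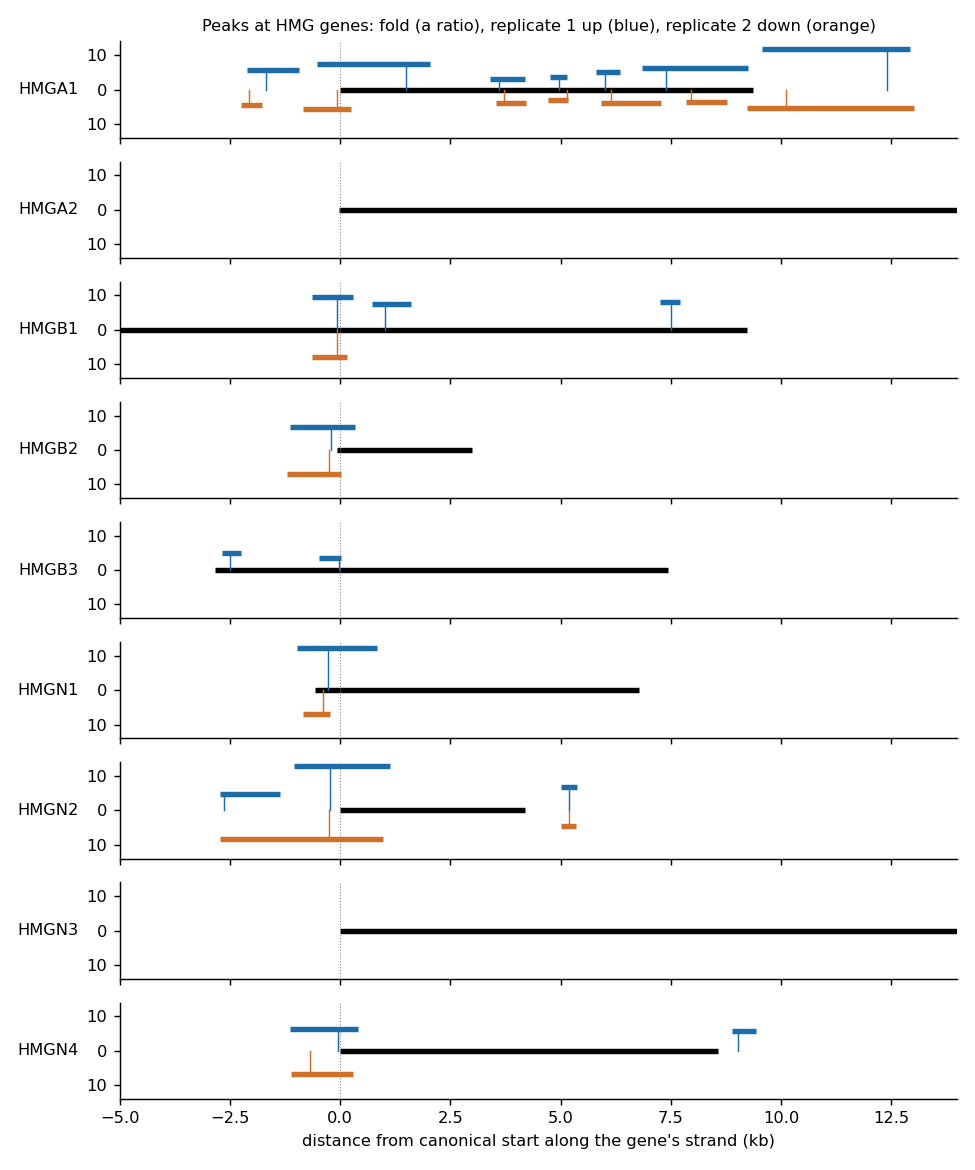
Peaks at the 9 HMG genes by distance from the canonical start in kb, drawn at their fold, with replicate 1 upward (blue) and replicate 2 downward (orange), a thin line at each summit and the gene as a black bar. HMGA1 carries 7 peaks in each replicate, HMGA2 and HMGN3 carry none, and parts of HMGB1, HMGA2 and HMGN3 beyond the axis are not drawn.

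In the HMGB family, HMGB1 and HMGB2 each had a peak at the canonical start in both replicates. HMGB1 (ENSG00000189403.15, chr13:30456704-30617597, minus strand) had a fold of 9.53 in replicate 1 (92 fragments over 8, list percentile 97.0) and of 7.92 in replicate 2 (51 fragments over 5.57, list percentile 95). The summits, 30466014 and 30466015, were 1 bp apart and 78 and 79 bp upstream of the canonical start, among the 3 CCAAT copies shown above. This was the closest placement between replicates among the 6 genes.

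A far upstream start extends the HMGB1 annotation to 160894 bp. The peak there had a fold of 6.90 in replicate 1 and 4.65 in replicate 2, with summits at 30617800 and 30617799. USPL1 also has a start within 3 kb of that peak, and its gene holds both summits, so the peak cannot be given to HMGB1.

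The other 5 HMGB1 peaks were in replicate 1 alone. One lay in an intron 1022 bp after the canonical start, with a fold of 7.54 from 48 fragments. Another lay in the 3′ UTR, from 30458231 to 30458672, with a fold of 8.12 (list percentile 94.9) from 43 fragments over a control level of 4. The last 3, in introns, had folds of 2.27, 5.43 and 3.89. The fold of the 3′ UTR peak was above that of the strongest promoter peak of 4 of the 7 HMG genes with one in replicate 1, yet it had no counterpart in replicate 2.

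Words of 32 bases were used to ask how much of each peak occurs elsewhere in hg38, since HMG genes have many processed copies. In the HMGB1 3′ UTR peak 60.3% of the words occurred more than once on the main chromosomes. In the 3 intronic peaks 23.1%, 78.4% and 68.9% did. The most frequent word of the 3′ UTR peak occurred 88087 times, and those of the intronic peaks 302, 9869 and 60495 times. Each count exceeds the 154 HMG processed pseudogenes, so these words are not copies of HMG genes alone. By contrast the start peak of HMGB1 had 4.97% repeated words in replicate 1 and 6.05% in replicate 2. Over all HMG genes, the 8 peaks of replicate 1 alone had a median of 38.1% repeated words (range 0 to 78.4), with 5 of 8 above 20%. Those above 20% were the 3′ UTR peak and the 3 intronic peaks of HMGB1 above, and a peak past the HMGN4 end. The 15 replicate 1 peaks with a counterpart had a median of 3.66% (range 0 to 26.9), with 1 above 20%. Among the HMG genes the difference rests mostly on 1 gene, HMGB1. The part of repeated words in the replicate agreement was not tested, and their share over all peaks was not computed.

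**Figure D4:**
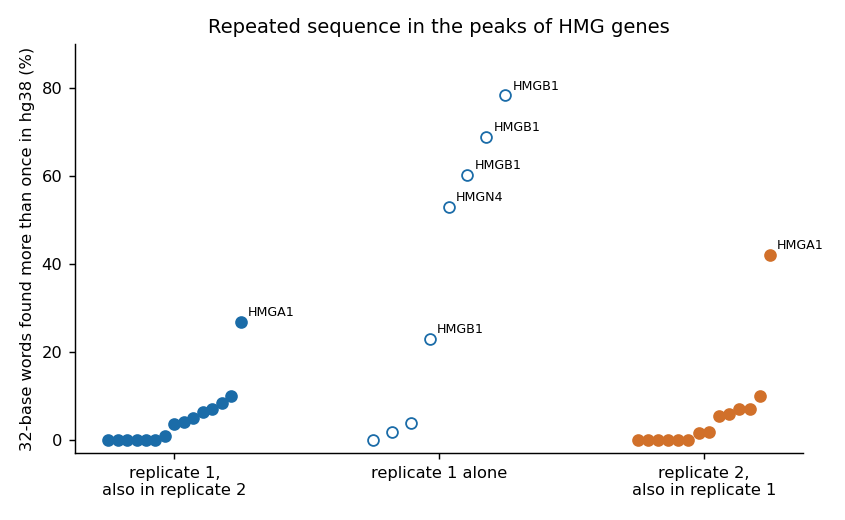
Percent of the 32-base words of each HMG peak that occur more than once in hg38, for replicate 1 peaks with and without an overlapping replicate 2 peak and for replicate 2 peaks, with genes named above 20%. Of the 8 peaks found in replicate 1 alone, 5 exceed 20%, against 1 of 15 and 1 of 14 in the other columns. These 5 lie at HMGB1 and HMGN4.

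HMGB2 (ENSG00000164104.12, chr4:173331376-173334432, minus strand) had a single peak in each replicate. The fold was 6.60 in replicate 1 (135 fragments over a control level of 18.0) and 7.05 in replicate 2 (67 fragments over 8.65). The summits lay 198 and 263 bp upstream of the canonical start. By fragments, HMGB2 was above 99% of replicate 1 peaks and 98.9% of replicate 2 peaks, but its control level was also above 97.9% and 95.7% of peaks. By fold it therefore stood lower, at list percentiles of 89.7 and 91.7, while by p it stood at 98.2 and 98.3. No 32-base word of either HMGB2 peak occurred more than once in the genome.

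HMGB3 (ENSG00000029993.15, chrX:150980509-150990771, plus strand) had 2 peaks in replicate 1. One, with a fold of 4.92 from 23 fragments (list percentile 72.5), had its summit 319 bp after an upstream start. The other, with a fold of 3.43 from 25 fragments (list percentile 32.7), had its summit 16 bp before the canonical start. Replicate 2 had no peak nearer than 213 kb to that start. Peaks of replicate 2 were called from as few fragments as the 11 at the HMGN2 peak past its end and the 14 at the upstream HMGA1 peak. Whether the lower number of fragments in replicate 2 bears on its lack of an HMGB3 peak was not tested.

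In the HMGN family, HMGN1 and HMGN2 had the highest promoter folds of all HMG genes in replicate 1. HMGN1 (ENSG00000205581.11, chr21:39342315-39349647, minus strand) had a fold of 12.3 (122 fragments over 8.18, list percentile 98.7) in replicate 1 and of 6.91 (47 fragments over 5.95, list percentile 91.0) in replicate 2. The ratio of these folds, 1.78, was the largest among the 6 genes and above the 95th percentile of 1.64 over 53750 overlapping peaks. The peak was 1816 bp wide in replicate 1 and 615 bp wide in replicate 2, where it ended 224 bp short of the canonical start. The summits lay 279 and 395 bp upstream of that start, over other annotated HMGN1 transcripts. HMGN1 had the most GC-rich promoter of the 9 genes, 79.3%, above 94.8% of all promoters.

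HMGN2 (ENSG00000198830.12, chr1:26472440-26476642, plus strand) had a fold of 12.8 in replicate 1 (110 fragments over 7.01, rank 1076 of 97162) and of 8.46 in replicate 2 (41 fragments over 3.97, rank 2597 of 68532). The summits, 220 and 254 bp upstream of the start, were 34 bp apart. In replicate 2 the peak of 3714 bp joined what replicate 1 called as separate peaks, the second of which had a fold of 4.88 and its summit in DHDDS.

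HMGN2 also had a peak past its end, shown here because it was the one peak beyond an HMG gene with the same summit in both replicates. It began at 26477453 in both lists, with its summit at 26477638, 996 bp past the annotated end, and its window lies at chr1:26477563-26477713 (plus strand).
HMGN2, past the end: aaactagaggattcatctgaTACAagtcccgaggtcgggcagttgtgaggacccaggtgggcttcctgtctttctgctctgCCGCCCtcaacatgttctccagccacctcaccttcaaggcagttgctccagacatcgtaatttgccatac

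The window held 1 TGTA and 1 GGGCGG, both on the minus strand. The fold was 6.72 in replicate 1 from 25 fragments and 4.64 in replicate 2 from 11 fragments. These were small counts over control levels of 2.58 and 1.59, among the lowest of each list. The GC content around the summit was 46.2%, lower than at over 99% of peaks, and none of its 32-base words was repeated.

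HMGN3 (ENSG00000118418.16, chr6:79201245-79234689, minus strand) had no peak in either list. The nearest peaks lay 156 kb from its start in replicate 1 and 367 kb in replicate 2. Of 2398 genes of similar length, 18.8% had no peak. Its promoter, shown above, did not stand apart in composition, with a GC content of 63.3% and a CpG ratio of 0.83, and no 32-base word of it was repeated. Of 658 genes with a promoter of like composition, 67.8% carried a promoter peak in each replicate and 18.5% in neither.

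HMGN4 (ENSG00000182952.5, chr6:26538366-26546933, plus strand), a retrogene related to HMGN2, had a fold of 6.34 in replicate 1 (54 fragments over 7) and of 6.78 in replicate 2 (36 fragments over 4.46). The peaks covered nearly the same interval, but the summits lay 41 and 683 bp upstream of the start. A peak 460 bp past its end had a fold of 5.69 in replicate 1 alone. Of the words of this peak 53.0% were repeated, the most frequent 24388 times.

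**Figure D5:**
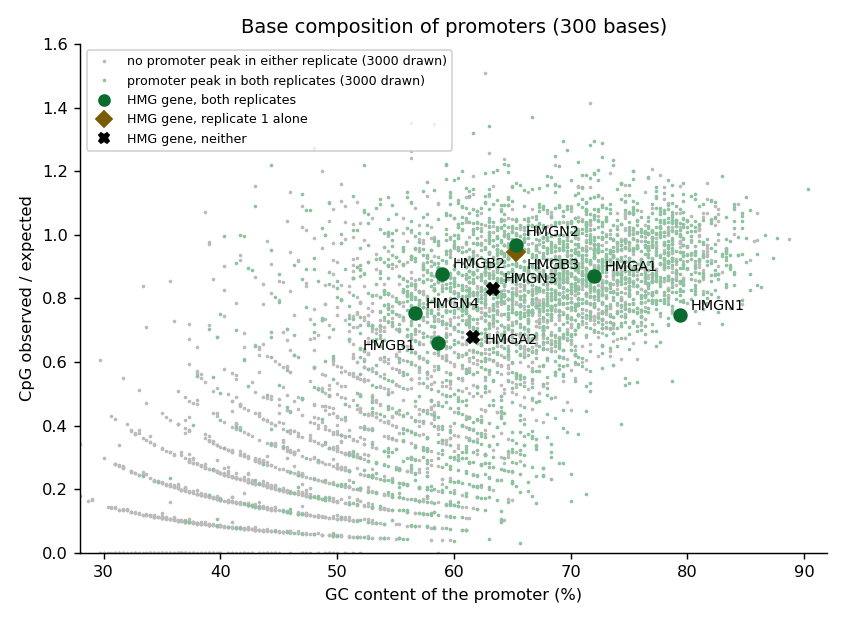
CpG ratio (observed over expected) against GC content of 300-base promoters for the HMG genes (labelled) and for 3000 genes drawn from those with a promoter peak in both replicates (green) and in neither (grey). HMGA2 (61.7%, 0.68) and HMGN3 (63.3%, 0.83) lie within the range of the HMG genes that have peaks.

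Over all protein-coding genes, promoters with a peak in both replicates had a median GC content of 66.0% and a median CpG ratio of 0.83, against 53.0% and 0.47 for those without a peak. Among the HMG genes the order was not the same, since HMGN4 (56.7%), HMGB1 (58.7%) and HMGB2 (59.0%) had peaks with a lower GC content than HMGA2 and HMGN3.

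Away from promoters the HMG genes carried few peaks found in both replicates. No HMG gene had a gene-body peak outside its own promoters in both replicates, beside 28.6% of all genes. Gene length partly fixes this count, since HMGB2 has 0 bp and HMGN2 213 bp outside their promoter windows. At HMGA1, which had such peaks in replicate 2, the replicate 1 peak over the same place was the one that touched the promoter window by 20 bp. Gene ends were counted apart, as polyadenylation sites lie there. HMGA1 and HMGN2 had a peak in the last 1 kb or the next 1 kb outside their own promoters in both replicates, 2 of 9 beside 13.1% of all genes. With peaks inside promoters counted as well, the same 2 genes were found, beside 25.7%. Outside promoters, the only such HMGA1 peak of replicate 1 was the one near the SMIM29 start, with its summit 3045 bp past the HMGA1 end. The HMGA1 part of this count therefore rests on a peak that cannot be given to either gene.

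The annotated ends were searched on the gene strand. TGTA occurred in the last 100 bases of 5 of 9 HMG genes (HMGB2, HMGB3, HMGN1, HMGN2 and HMGN3) and of 51.9% of all genes. AATAAA, the common polyadenylation signal, lay within 40 bases of the end in 7 of 9, all except HMGB1 and HMGB2, against 61.8% of all genes. Of the genes with gene-end peaks, HMGN2 had 1 TGTA and HMGA1 had none. The signal sites of both are given as 30 bases, HMGA1 at chr6:34246195-34246224 and HMGN2 at chr1:26476609-26476638 (both plus strand), with AATAAA in capitals.
HMGA1 signal: tgcagttacttgAATAAAaaaaatatcctt
HMGN2 signal: ttgttggacaggAATAAAgtaaattggaga

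Of all 37 HMG peaks, 78.4% (29 peaks) overlapped a peak of the other replicate by at least 1 bp. A shared place enters this share from both lists, and HMGA1 gave 7 peaks to each list. The peaks are therefore not independent, and no interval is given for the share. With a reciprocal overlap of 50%, or with summits within 200 bp, the share was 48.6%. By the first measure it was 65.2% in replicate 1, beside 55.3% of all its peaks, and 100% in replicate 2, beside 85.9%.

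Processed pseudogenes of the HMG genes could share reads with them. Of 154 such pseudogenes, 8 had a peak in replicate 1, 3 in replicate 2 and 3 in both (HMGA1P8, HMGB3P22 and HMGN2P46), beside 3.14% of all processed pseudogenes in both. HMGB3P22 (chr5:179679032-179694768) and HMGN2P46 (chr15:45511136-45586290) have annotated spans far above the median of 533.5 bp for these pseudogenes. In replicate 1 these were 4 of 7 HMGA1, 1 of 1 HMGB2, 1 of 29 HMGB3 and 2 of 38 HMGN2 pseudogenes. None of the 46 HMGB1 and none of the 32 HMGN1 pseudogenes had a peak in either replicate. In the canonical exons 40.5% of the HMGB1 words and 71.1% of the HMGN1 words occurred more than once. The share was 46.9% at HMGA1, 49.9% at HMGN2 and 28.6% at HMGB3, and at most 6.33% (HMGN3) at the remaining genes. Whether any HMG peak holds reads from such copies was not tested. The most frequent HMGB1 word occurred 88087 times and the most frequent HMGN1 word 14 times. The HMGB1 share is therefore not from its pseudogenes alone. In the 300 bases of the promoters no word was repeated in 7 of the 9 genes, the exceptions being HMGB3 (8.55%) and HMGN1 (0.372%).

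Related genes were counted in the same way. Of 24 other HMG-box and HMGN genes, 14 carried one or more promoter peaks in each replicate, close to the 57.0% of all protein-coding genes. Beside 17.0% of all genes, 5 of the 24 were above the 90th percentile of both lists, namely CIC, a repressor of receptor signalling targets, HMG20B, TCF7, a T cell factor, TOX4 and UBTF, which acts on ribosomal DNA. BBX, HMGB4, HMGN5 and TOX3 had no promoter peak in either replicate. All 5 genes of the SET complex, which contains HMGB2 protein, had promoter peaks in both, beside the same 57.0%, and APEX1, SET and TREX1 were above the 90th percentile of both lists, beside 17.0%. Marker genes of the labelled T cell type had promoter peaks in both replicates in 8 of 10 cases, and those of B cells in 4 of 5, of myeloid cells in 4 of 5 and of epithelial cells in 2 of 4, all beside 57.0% of all genes. Markers of other cell types thus carried peaks as well.

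By the percentile of the strongest promoter peak and the length of promoter peaks in both replicates (4 values), the genes most like HMGA1 among 11425 were TMIGD2, EHD2 and METTL16, at distances of 1.59, 2.31 and 2.84 percentile points. Those most like HMGB2 were BCDIN3D, COX5B and RNF111, at 3.04, 3.59 and 3.99.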

How the data were processed

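CUT&Tag for NUDT21 was performed on 2 replicates of J.gamma1 cells. According to the methods, reads were cleaned with fastp, aligned to hg38 with Bowtie2 (2.2.5 in the submitters' processing notes), cleared of duplicates and passed to MACS3 (3.0.1). Peak calling by the authors was done per replicate. The deposited lists give the fold at the summit (a ratio), the −log10 p-value and −log10 q-value, a score derived from q, and the other column, the summit offset. The score was not used. The control library and the annotation release of the authors are not given in the sources used here, and read totals were not used.

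Peaks were joined to GENCODE 44 in Python 3.11.15 with pandas 2.3.3, and no peak lay past a chromosome end of hg38. Fragments and control levels were solved from fold and −log10 p within 0.01, with the pileup of replicate 1 scaled by 0.921. The fold was taken as the scaled pileup plus 1, divided by the control level plus 1. It is therefore lower than the plain ratio of the fragments to the control level given beside it. The solver was tested on simulated data without scaling, so that test did not cover the scaled pileup of replicate 1. It also did not reach values as high as those of HMGB2 in replicate 1, 135 fragments over 18.0. Composition used 300 bases around canonical starts and 150 bases either side of summits. "Like composition" means GC within 2.5 percentage points and CpG ratio within 0.05. Genes named were the members, their neighbours, pseudogenes with a peak in both replicates, related genes above the 90th percentile of both lists or without a promoter peak, and the 3 nearest genes to HMGA1 and HMGB2. The members and lists were chosen with earlier results of these data known. Alternatives covered distances, starts, thresholds, ranking and single replicates.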

Additional observations from a re-analysis of the deposited data

How the results depend on the processing

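Promoter peaks were shared by both replicates at 6 HMG genes, also with starts within 1 kb, summits, protein-coding starts or peaks of −log10 q at or above 5, and this count was 6 to 7 with 1 replicate. Ranked by p, the median percentile was 97.1 in place of 92, and 5 genes in place of 3 were above the 90th percentile. In replicate 1 alone that count was 4 and in replicate 2 alone 5. By p, HMGB2 stood at 98.2 in place of 90.7. Gene-end peaks in both replicates were found at 1 gene in place of 2 under each of the next settings. The gene was HMGA1 at a −log10 q of 5 or more, HMGN2 with summits in the window, and HMGA1 within 300 bp past the end. With 1 replicate the count was 2 to 3. Counting peaks inside promoters, an alternative chosen after seeing the data, left 2. Gene-body peaks were at 1 gene in each replicate alone, in place of 0 in both. Pseudogenes with a peak numbered 1 at a −log10 q of 5 or more and were 8 in replicate 1 alone and 3 in replicate 2 alone. The shared part of the peaks was 100% for replicate 2 alone, and 48.6% with a reciprocal overlap of 50% or with summits within 200 bp. No paired analysis was possible because the study has a single group of samples. Peaks below the threshold are not in the lists, and 2 replicates of 1 line limit every spread given.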
